A study of Mus musculus with 6 samples.

Results

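Hepatic stellate cells and the extracellular matrix of the liver were followed through 36 genes: Reln and other stellate cell genes, small proteoglycans, collagens, laminins and nidogen, elastic fibre and matricellular proteins, the PDGF receptors, hepatocyte growth factor and the tissue inhibitors of metalloproteinases. The genes were found in tables of 24927 rows by their symbol alone. A row was found for 33 of the 36, and Ngfr, Mfap4 and Col4a2 were not analysed here. Col5a2 and Col6a3 stand among 1787 rows of chromosome 1 genes whose values match the symbols poorly, and they were left out, so 31 genes were used.

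The data are 6 RNA-seq libraries of whole liver from C57BL/6 mice, an inbred laboratory strain. By their labels, 3 are Cdkl3-/- (knockout of Cdkl3, which encodes a kinase related to the cyclin-dependent kinases) and 3 are wild type. Both groups are labelled male, 10 months old and on a chow diet, and the series states that the gene was deleted in the liver. The promoter of any Cre, the parent line of the controls and whether each library came from a different mouse are not stated there. The p-values therefore measure only how these libraries spread, which may be technical. Values are FPKM, fragments per length of transcript and per size of the library, which puts genes on 1 scale of length. Level also moves with transcript GC content in these libraries, as given below, so FPKM of genes of unlike GC content are not directly comparable.

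Stellate cells lie between hepatocytes and the sinusoidal endothelium, store retinyl esters and supply much of the fibrillar and basement membrane matrix of the liver. When activated, they turn into contractile myofibroblasts that deposit collagen and raise metalloproteinase inhibitors, the process behind liver fibrosis. Small leucine-rich proteoglycans such as decorin, lumican and biglycan coat collagen fibrils and bind growth factors, and laminins, collagen IV and nidogen build basement membranes.

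The checks did not bear out the labels, so groups are named by their labels throughout. Cdkl3 measured 0.139 ± 0.0600 FPKM in the libraries labelled knockout and 0.124 ± 0.0390 FPKM in those labelled wild type (SD, n = 3 each; limma adjusted p = 0.839 in a fit without a filter), from 10 to 32 reads per library. A deletion of some exons would not have to show in such a value. Xist, the RNA of the inactive X chromosome, averaged 0.0212 ± 0.00774 FPKM in the libraries labelled knockout and 253 ± 53.9 FPKM in those labelled wild type (SD, n = 3 each). The Y-linked genes Ddx3y and Eif2s3y averaged 45.02 ± 6.35 and 47.6 ± 3.94 FPKM in the libraries labelled knockout, and 0.1198 ± 0.0757 and 0.565 ± 0.281 FPKM in those labelled wild type (SD, n = 3 each). The sex that these transcripts mark and the labelled genotype divide the libraries in the same way and cannot be told apart in any result below. The depth recovered from the values ran from 24530000 to 39560000 reads on genes in the libraries labelled knockout and from 20460000 to 48610000 in those labelled wild type. Kap, a kidney transcript, stood at 5264, 4.18 and 5.72 FPKM in knockout replicates 1 to 3. In wild type replicates 1 to 3 it stood at 0.0785, 0 and 0 FPKM.

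Of the 31 genes used, 12 reached 1 FPKM in at least 3 libraries and were tested with limma on log2(FPKM + 1), with Benjamini-Hochberg adjustment over all 5673 genes that passed this filter. At an adjusted p under 0.05, 5 fell in the libraries labelled knockout (Reln, Dcn, Lum, Pdgfra and Hgf), 2 rose (Bgn and Nid1) and 5 did not pass (Col14a1, Ogn, Sparcl1, Timp3 and Efemp1). Over all tested genes, 20.4% were lower, 33.7% were higher and 54.1% differed in either direction. With 7 of 12 called in either direction, the members were thus near the background. Lower calls outnumbered higher ones among the members, and the reverse held over all genes. The median log2 difference (knockout minus wild type) was -0.53 over the 12 tested members and 0.12 over all tested genes. The split over all genes moved with the scaling: 1911 genes were higher and 1157 lower as deposited, but 1443 were higher and 1891 lower after median centring, when the median over all genes was -0.16. The calls of Reln, Dcn, Lum, Pdgfra and Bgn had the same direction and passed under each scaling. Bgn reached 1 FPKM only in libraries labelled knockout and Pdgfra only in those labelled wild type, so both had to differ to be tested. Because 1 is added before the logarithm, these differences understate the change of genes at low FPKM.

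**Figure D1:**
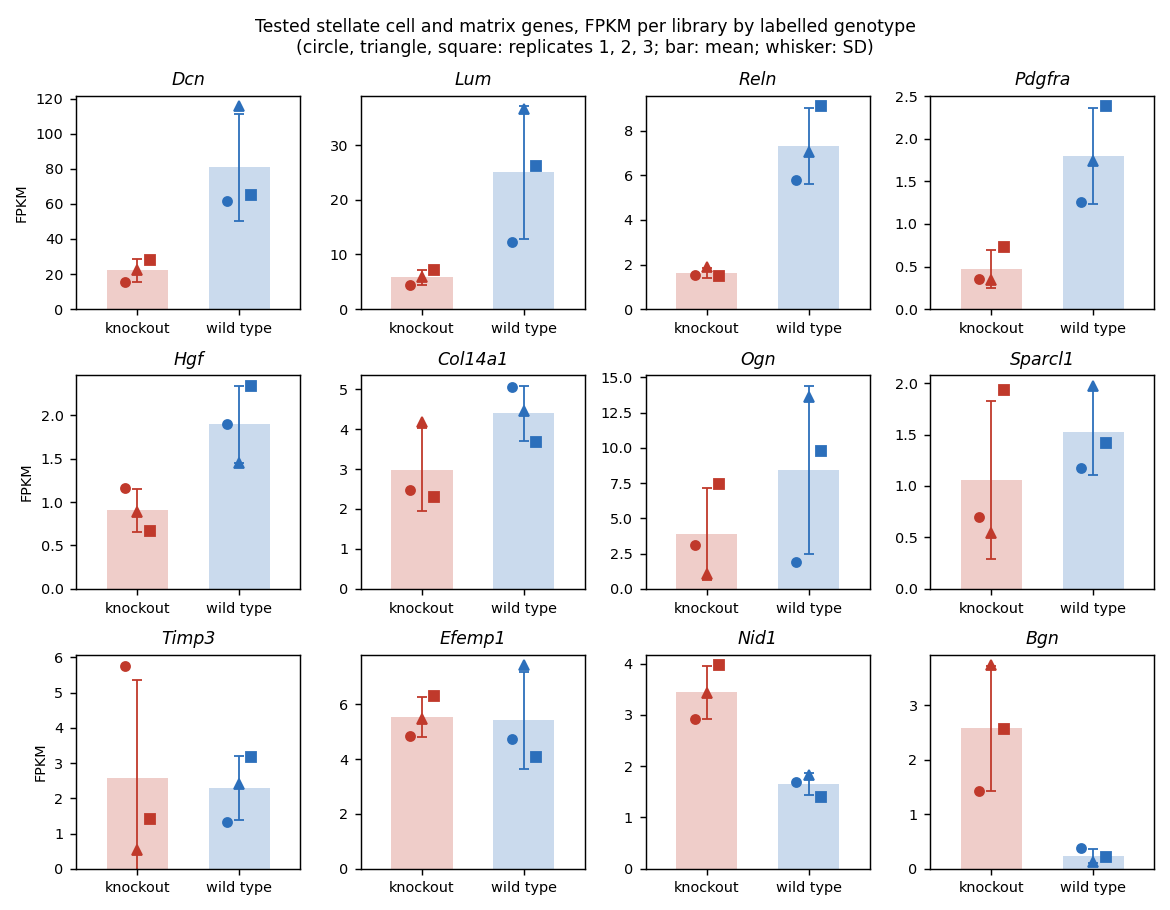
FPKM of the 12 tested members in each library (vertical axes, each from 0 and with its own range), libraries labelled knockout left and wild type right; bars are means, whiskers SD (cut at 0), and circle, triangle and square are replicates 1, 2 and 3. Reln, Dcn, Lum, Pdgfra and Hgf are lower in all 3 libraries labelled knockout than in any labelled wild type, Bgn and Nid1 are higher, and the other 5 overlap.

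Promoters are shown for the called members that had an entry in the RefSeq promoter table (GRCm38.p6), since they start from regions of very unlike composition. Of these genes, Reln, Pdgfra and Hgf were lower in the libraries labelled knockout, and Bgn and Nid1 were higher. Each is 300 bases long, 250 before to 50 after the start of transcription, written 5′ to 3′ on the gene's own strand. Capitals mark matches, on either strand, to the GC box, spelled GGGCGG, or to the CCAAT box. For Hgf, the first of its starts is shown.
Reln, chr5:22344656-22344955, minus strand: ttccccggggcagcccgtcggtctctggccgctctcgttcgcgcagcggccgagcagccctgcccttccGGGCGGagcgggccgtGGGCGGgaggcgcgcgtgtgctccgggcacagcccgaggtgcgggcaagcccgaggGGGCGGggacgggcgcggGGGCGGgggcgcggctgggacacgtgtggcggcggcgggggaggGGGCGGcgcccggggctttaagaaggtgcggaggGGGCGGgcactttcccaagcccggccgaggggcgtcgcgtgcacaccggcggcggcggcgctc
Pdgfra, chr5:75152001-75152300, plus strand: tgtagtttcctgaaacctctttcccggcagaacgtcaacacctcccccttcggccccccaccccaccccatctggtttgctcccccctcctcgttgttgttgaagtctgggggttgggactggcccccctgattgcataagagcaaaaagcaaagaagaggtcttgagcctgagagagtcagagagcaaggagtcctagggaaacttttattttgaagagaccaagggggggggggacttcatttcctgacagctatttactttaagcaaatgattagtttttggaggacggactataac
Hgf, chr5:16553245-16553544, plus strand: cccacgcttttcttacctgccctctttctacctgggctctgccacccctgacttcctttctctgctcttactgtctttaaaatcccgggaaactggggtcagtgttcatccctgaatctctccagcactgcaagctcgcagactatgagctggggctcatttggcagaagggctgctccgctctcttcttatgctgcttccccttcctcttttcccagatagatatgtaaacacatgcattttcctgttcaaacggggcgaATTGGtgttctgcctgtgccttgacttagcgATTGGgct
Bgn, chrX:73483351-73483650, plus strand: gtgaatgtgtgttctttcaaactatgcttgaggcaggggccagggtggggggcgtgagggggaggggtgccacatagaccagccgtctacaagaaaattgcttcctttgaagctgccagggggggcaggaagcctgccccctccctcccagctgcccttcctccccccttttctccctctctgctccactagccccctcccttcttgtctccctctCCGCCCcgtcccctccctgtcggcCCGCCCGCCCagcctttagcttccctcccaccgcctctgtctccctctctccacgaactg
Nid1, chr13:13437352-13437651, plus strand: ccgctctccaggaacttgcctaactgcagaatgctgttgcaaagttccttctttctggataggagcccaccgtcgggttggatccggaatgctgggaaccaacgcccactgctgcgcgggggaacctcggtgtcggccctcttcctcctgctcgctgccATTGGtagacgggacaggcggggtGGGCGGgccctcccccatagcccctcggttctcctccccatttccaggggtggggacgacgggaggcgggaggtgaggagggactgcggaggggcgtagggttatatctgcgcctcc
Reln starts in a window of 80.7% GC with 47 CpG and 6 GC boxes. Bgn has 63.7% GC, 9 CpG and 3 GC boxes, of which a pair overlaps, and Nid1 has 64.7% GC, 20 CpG, 1 GC box and 1 CCAAT box. Pdgfra, at 51.0% GC and 5 CpG, and Hgf, at 51.3% GC and 7 CpG, are close to the median of 52.7% GC and 7 CpG over all 32851 promoters of the table. Hgf has 2 CCAAT boxes and Pdgfra has no match to either motif. Over all promoters, 35.7% hold a GC box and 37.4% hold a CCAAT box. TATAAA, found in 13.6% of all promoters, and TTCNNNGAA, found in 8.3%, were searched on both strands too and had no match in these windows. The table held an entry for 26 of the 36 members, and Dcn and Lum were not among them.

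Reln and the PDGF receptor genes describe the stellate cell itself. Reln encodes reelin, a secreted glycoprotein that in the liver is made by stellate cells. It measured 1.54, 1.87 and 1.48 FPKM in knockout replicates 1 to 3, against 5.79, 7.04 and 9.13 FPKM in wild type replicates 1 to 3. The highest library labelled knockout was well under the lowest labelled wild type, and the groups did not overlap. The means were 1.63 ± 0.214 FPKM in the libraries labelled knockout and 7.32 ± 1.69 FPKM in those labelled wild type (SD, n = 3 each), a log2 difference of -1.65 (SE 0.19, 95% interval -2.08 to -1.21, limma adjusted p = 0.000364). Reln occupies 21884454 to 22344702 of chromosome 5 (minus strand, GENCODE M21 on GRCm38) and rested on 895 to 1759 reads in each library labelled knockout and 4434 to 8125 in each labelled wild type.

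Pdgfra, which encodes the PDGF receptor alpha of stellate cells and fibroblasts, occupies 75152292 to 75198215 of the same chromosome (plus strand). It measured 0.354, 0.338 and 0.728 FPKM in knockout replicates 1 to 3 and 1.26, 1.74 and 2.39 FPKM in wild type replicates 1 to 3. All libraries labelled knockout were under 1 FPKM and all labelled wild type were over it. The mean was 0.473 ± 0.221 FPKM in the libraries labelled knockout and 1.80 ± 0.566 FPKM in those labelled wild type (SD, n = 3 each), with a log2 difference of -0.92 (SE 0.19, 95% interval -1.35 to -0.48, limma adjusted p = 0.00442). Pdgfrb, the receptor that marks stellate cells and pericytes and drives their proliferation, was almost unread. It had 0, 3 and 0 reads in knockout replicates 1 to 3 and 0, 4 and 2 reads in wild type replicates 1 to 3. No difference was detectable at this depth.

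Hgf, the hepatocyte growth factor that stellate cells secrete toward hepatocytes, occupies 16553495 to 16620152 of chromosome 5 (plus strand). It measured 1.16, 0.887 and 0.672 FPKM in knockout replicates 1 to 3 and 1.90, 1.45 and 2.34 FPKM in wild type replicates 1 to 3. The groups did not overlap, but the nearest libraries were close. On the log2 scale they differed by -0.60 (SE 0.17, 95% interval -1.0 to -0.20, limma adjusted p = 0.0197). The call was lost with the GC trend of each library removed (adjusted p = 0.058) and without knockout replicate 2 (adjusted p = 0.052), knockout replicate 3 (adjusted p = 0.073) or wild type replicate 3 (adjusted p = 0.070), all in limma. Met, its receptor, averaged 14.7 ± 1.12 FPKM in the libraries labelled knockout and 18.7 ± 1.18 FPKM in those labelled wild type (SD, n = 3 each) and did not pass (limma adjusted p = 0.097). Hand2, a transcription factor of stellate cells, stayed under the filter with 13, 11 and 14 reads in knockout replicates 1 to 3 and 11, 2 and 2 reads in wild type replicates 1 to 3. Wild type replicate 1 overlapped the libraries labelled knockout.

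Decorin and lumican had the highest mean FPKM of the members in both groups. Dcn and Lum are plus-strand neighbours of chromosome 10, at 97479609 to 97518143 and 97565128 to 97572703. Dcn, which encodes the collagen-binding proteoglycan decorin, measured 15.4, 22.5 and 28.2 FPKM in knockout replicates 1 to 3, against 61.5, 116 and 64.8 FPKM in wild type replicates 1 to 3. Every library labelled wild type was above every library labelled knockout, and wild type replicate 2 stood apart on the high side. The means were 22.0 ± 6.42 FPKM in the libraries labelled knockout and 80.8 ± 30.5 FPKM in those labelled wild type (SD, n = 3 each), a log2 difference of -1.81 (SE 0.30, 95% interval -2.50 to -1.11, limma adjusted p = 0.00178).

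Lum, the gene of lumican, a keratan sulphate proteoglycan that spaces collagen fibrils, measured 4.43, 5.92 and 7.15 FPKM in knockout replicates 1 to 3 and 12.3, 36.6 and 26.2 FPKM in wild type replicates 1 to 3. The groups did not overlap, and the libraries labelled wild type were the more spread. The means were 5.83 ± 1.36 FPKM in the libraries labelled knockout and 25.0 ± 12.2 FPKM in those labelled wild type (SD, n = 3 each), a log2 difference of -1.82 (SE 0.37, 95% interval -2.67 to -0.97, limma adjusted p = 0.0042). Dcn stood at 3.74 ± 0.240 times the FPKM of Lum in the libraries labelled knockout and at 3.56 ± 1.32 times in those labelled wild type (SD, n = 3 each), so the ratio of the neighbours differed by less than the spread between replicates.

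Biglycan went the other way. Bgn, on the X chromosome at 73483602 to 73495933 (plus strand), encodes a close relative of decorin that is also a ligand of innate immune receptors. It measured 1.43, 3.73 and 2.56 FPKM in knockout replicates 1 to 3, against 0.382, 0.128 and 0.216 FPKM in wild type replicates 1 to 3. The lowest library labelled knockout was several times the highest labelled wild type. The means were 2.58 ± 1.15 FPKM in the libraries labelled knockout and 0.242 ± 0.129 FPKM in those labelled wild type (SD, n = 3 each), a ratio of 10.6 and a log2 difference of 1.48 (SE 0.24, 95% interval 0.93 to 2.03, limma adjusted p = 0.0015). With the GC trend of each library removed the difference was 0.80 (limma adjusted p = 0.0097). Bgn amounted to 11.7% ± 4.25 of the FPKM of Dcn in the libraries labelled knockout and 0.355% ± 0.256 in those labelled wild type (SD, n = 3 each). The transcripts of Bgn and Dcn have 52.1% and 40.1% GC, and the part of GC content in this ratio was not tested.

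The remaining proteoglycans among the members overlapped between groups. Ogn, which encodes osteoglycin, ranged from 1.06 to 7.45 FPKM in the libraries labelled knockout and from 1.94 to 13.6 FPKM in those labelled wild type, with a log2 difference of -0.89 and a 95% interval of -2.75 to 0.96. Vcan, the gene of the large proteoglycan versican, rested on 6 to 42 reads in the libraries labelled knockout and 17 to 24 in those labelled wild type. Among 24 other proteoglycan genes, 8 were tested, of which 3 rose and 1 fell. Sdc1 and Sdc4, cell-surface heparan sulphate proteoglycans, averaged 2.91 ± 0.890 and 69.9 ± 7.52 FPKM in the libraries labelled knockout and 0.209 ± 0.0459 and 24.8 ± 3.68 FPKM in those labelled wild type (SD, n = 3 each). Their log2 differences were 1.67 (limma adjusted p = 0.00029) and 1.47 (limma adjusted p = 0.00043), but Sdc1 reached 1 FPKM only in the libraries labelled knockout and had to differ to be tested. Omd, which encodes osteomodulin, rose by 1.02 (limma adjusted p = 0.015), and Srgn, the serglycin of granules in blood cells, had a log2 difference of -1.87 (limma adjusted p = 0.00068). A second gene fell without knockout replicate 3 or wild type replicate 1.

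The collagens were listed at low FPKM in these libraries. Col14a1, whose product links collagen fibrils and which is a fibroblast and stellate cell marker, was the collagen with the highest FPKM among the members. It measured 2.47, 4.17 and 2.29 FPKM in knockout replicates 1 to 3 and 5.05, 4.46 and 3.67 FPKM in wild type replicates 1 to 3. The groups overlapped through knockout replicate 2, and the log2 difference of -0.46 (SE 0.22, 95% interval -0.96 to 0.04) did not pass (limma adjusted p = 0.104). It passed as lower after median centring (-0.74, limma adjusted p = 0.014), with the GC trend removed (-1.08, limma adjusted p = 0.0024) and without knockout replicate 2 (-0.67, limma adjusted p = 0.029).

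The main fibrillar collagen of fibrosis, type I, stood far under the filter. Col1a1, its alpha 1 chain, had 10, 14 and 7 reads in knockout replicates 1 to 3 and 6, 12 and 2 reads in wild type replicates 1 to 3. Col1a2, its alpha 2 chain, measured 0.374, 0.277 and 0.392 FPKM in knockout replicates 1 to 3 and 0.228, 0.265 and 0.165 FPKM in wild type replicates 1 to 3. The FPKM values of neither gene overlapped between groups, although the nearest libraries were close. They were higher in the libraries labelled knockout, with a ratio of means of 2.00 for Col1a1 and 1.58 for Col1a2. In a limma fit of 20529 genes without a filter, neither passed, with log2 differences of 0.04 for Col1a1 (adjusted p = 0.271) and 0.14 for Col1a2 (adjusted p = 0.25) that the added 1 makes small at this level. With a pseudocount of 0.1 the differences were 0.27 for Col1a1 (limma adjusted p = 0.426) and 0.49 for Col1a2 (limma adjusted p = 0.288). Col1a2 stood at 6.99 ± 2.48 times the FPKM of Col1a1 in the libraries labelled knockout and 9.04 ± 2.03 times in those labelled wild type (SD, n = 3 each). Both chains enter the same collagen trimer, and their transcripts have 46.8% and 57.8% GC.

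Of the other collagens, Col15a1, a chain of a basement membrane zone collagen, ranged from 0.116 to 0.324 FPKM in the libraries labelled knockout and 0.0918 to 0.123 FPKM in those labelled wild type. Col6a2, a chain of the beaded-filament collagen VI, had 1, 4 and 5 reads in knockout replicates 1 to 3 and 0 in each library labelled wild type, and Col6a1, another chain, had 1, 2 and 0 reads and 0 in each labelled wild type. Among 24 further collagen genes outside the members, 20 could be used and 0 passed the filter. Their summed level was 1.17 to 1.80 FPKM in the libraries labelled knockout and 1.45 to 3.03 FPKM in those labelled wild type. In the limma fit without a filter, Col4a5 was called lower (log2 difference -0.76, adjusted p = 0.026). Col5a3, at 0 in each library labelled wild type, was called higher there (0.07, limma adjusted p = 0.041). Both were chosen after their values were seen.

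Nid1 was the called gene among the basement membrane members. It encodes nidogen, which links laminin to collagen IV, and occupies 13437551 to 13512269 of chromosome 13 (plus strand). It measured 2.92, 3.43 and 3.96 FPKM in knockout replicates 1 to 3, against 1.70, 1.83 and 1.41 FPKM in wild type replicates 1 to 3. The groups did not overlap, and the spread within each was small. The means were 3.44 ± 0.519 FPKM in the libraries labelled knockout and 1.64 ± 0.214 FPKM in those labelled wild type (SD, n = 3 each), a ratio of 2.09 and a log2 difference of 0.74 (SE 0.16, 95% interval 0.38 to 1.11, limma adjusted p = 0.00529). With the GC trend removed the difference was 0.12 (limma adjusted p = 0.52), and the call was lost.

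The laminin and collagen IV chains that nidogen joins were under the filter. Lama4, the laminin alpha 4 chain of vessels, measured 0.101, 0.105 and 0.0961 FPKM in knockout replicates 1 to 3 and 0.0276, 0.0358 and 0.0729 FPKM in wild type replicates 1 to 3, without overlap (log2 difference 0.07, limma adjusted p = 0.138 without a filter). Lamb1, the beta 1 chain, ranged from 0.140 to 0.333 FPKM in the libraries labelled knockout and from 0.0830 to 0.202 FPKM in those labelled wild type. Col4a1 rested on 4 to 10 reads in the libraries labelled knockout and 4 to 14 in those labelled wild type, Lama2 on about 1 to 36 and 2 to 18 reads, and Lamc3 had 3 reads in knockout replicate 2 and 0 elsewhere. Of 66 low values of the members, 63 were whole reads to within 0.15 read, and the other 3 belonged to Lama2. Of 15 other basement membrane genes 1 was tested, Dag1, the dystroglycan receptor of laminins, and it did not pass (log2 difference -0.35, limma adjusted p = 0.23).

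Elastic fibre and matricellular genes were split by level. Efemp1, which encodes fibulin-3, measured 4.84, 5.47 and 6.28 FPKM in knockout replicates 1 to 3 and 4.73, 7.41 and 4.08 FPKM in wild type replicates 1 to 3. The groups overlapped throughout, with a log2 difference of 0.06 (95% interval -0.45 to 0.57, limma adjusted p = 0.846), and the sign turned under other scalings (-0.23 after median centring). Fbln5, the fibulin that assembles elastic fibres, reached 1 FPKM in wild type replicate 2 alone and ranged from 0.351 to 0.498 FPKM in the libraries labelled knockout and from 0.368 to 1.03 FPKM in those labelled wild type. Sparcl1, a matricellular relative of SPARC, ranged from 0.542 to 1.94 FPKM in the libraries labelled knockout and from 1.17 to 1.98 FPKM in those labelled wild type. Its log2 difference was -0.34 (95% interval -0.93 to 0.25, limma adjusted p = 0.289), which passed as lower with the GC trend removed (-0.90) and without knockout replicate 3 (-0.63).

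Sparc and Timp2 were the 2 members under the filter that passed in the limma fit without a filter, where 15.4% of 20529 genes were higher, 5.09% lower and 20.5% called in either direction. Sparc, the collagen-binding osteonectin, measured 0.334, 0.561 and 0.267 FPKM (31, 84 and 27 reads) in knockout replicates 1 to 3. In wild type replicates 1 to 3 it measured 0.0733, 0.0272 and 0.0258 FPKM (10, 5 and 2 reads). Every library labelled knockout was higher, at a ratio of means of 9.20, and the adjusted p was 0.026. The call of Sparc was lost under 9 of 16 alternatives, among them the removal of the GC trend (limma adjusted p = 0.052) and leaving out any 1 of the libraries labelled wild type (limma adjusted p = 0.067 to 0.11). Tgfbi, a matricellular protein named for its induction by TGF-beta, had 6, 30 and 6 reads in knockout replicates 1 to 3 and 2, 0 and 2 reads in wild type replicates 1 to 3. It did not pass (limma adjusted p = 0.148 without a filter). Ecm1, an inhibitor of TGF-beta activation, had 2 reads in knockout replicate 2 and 0 elsewhere.

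Of the metalloproteinase inhibitors, Timp2 rose in the fit without a filter. It measured 0.502, 0.714 and 0.596 FPKM (48, 110 and 62 reads) in knockout replicates 1 to 3. The gene measured 0.0855, 0.0634 and 0.0502 FPKM (12, 12 and 4 reads) in wild type replicates 1 to 3. The ratio of means was 9.10, every library labelled knockout was higher, and the log2 difference of 0.59 without a filter had an adjusted p of 0.00629 in limma. With a pseudocount of 0.1 in place of 1 the difference was 2.08 (limma adjusted p = 0.00305). Timp3, the matrix-bound inhibitor, measured 5.76, 0.543 and 1.40 FPKM in knockout replicates 1 to 3 and 1.33, 2.39 and 3.16 FPKM in wild type replicates 1 to 3. Knockout replicate 1, the library with Kap at 5264 FPKM, was the highest of all and knockout replicate 2 the lowest, so no direction could be given (log2 difference -0.13, 95% interval -1.40 to 1.14; -0.73 without knockout replicate 1, limma adjusted p = 0.071). Timp1, the inhibitor that rises in fibrosis, was listed at 0 in all 6 libraries, where 3 reads would be worth 0.0695 to 0.165 FPKM.

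**Figure D2:**
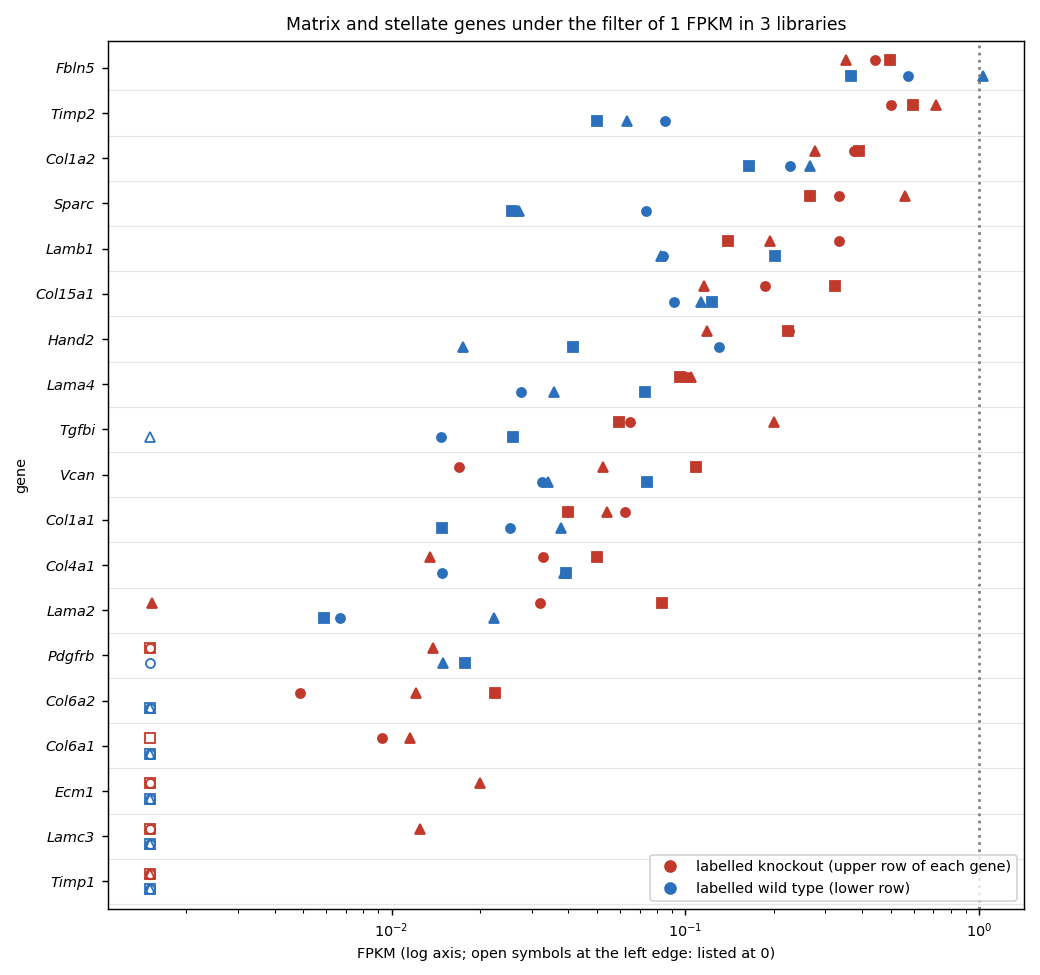
FPKM of the 19 members under the filter of 1 FPKM in at least 3 libraries (horizontal log axis, dotted line at 1 FPKM; open symbols at the left edge are listed at 0), for each gene the libraries labelled knockout in the upper row and wild type in the lower. Timp2 and Sparc show the clearest separation, and Pdgfrb, Col6a1, Col6a2, Ecm1, Lamc3 and Timp1 are at or near 0.

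Of the 19 members under the filter, 16 had a higher mean in the libraries labelled knockout, 2 (Fbln5 and Pdgfrb) had a lower mean and Timp1 was at 0. The groups did not overlap for 7 of the 19, all of them higher in the libraries labelled knockout: Col1a1, Col1a2, Col6a2, Lama4, Sparc, Timp2 and Tgfbi. Some were barely apart. The lowest library labelled knockout and the highest labelled wild type stood at 0.0399 and 0.0376 FPKM for Col1a1. They stood at 0.277 and 0.265 FPKM for Col1a2, and at 1 and 0 reads for Col6a2. Among the 14856 genes fitted only without a filter, 23.8% were higher and 4.05% lower without overlap, 27.8% in all, so higher values were also the common direction among genes of this level. Among the 12 tested members, 7 did not overlap, 2 of them higher and 5 lower, against 63.9% of all tested genes, 38% higher and 25.8% lower.

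Transcript GC content moved with both the level and the direction. The median was 48.2% GC over the tested members, 54.0% over the members under the filter and 45.3% over all tested genes. Of 17 members over 50% GC, 3 passed the filter, and of 14 at or under 50% GC, 9 did. The 5 members called lower had 40.1% to 49.4% GC, and the members called higher had 50.5% (Nid1) and 52.1% (Bgn). Over all tested genes with 40% to 45% GC, 23.3% were higher and 23.9% lower. With 45% to 50% GC, the interval of Reln and Pdgfra, 42.7% were higher and 14.3% lower. With 50% to 55% GC, 53.4% were higher and 12.3% lower. With the GC trend of each library removed, the differences of Reln (-2.22), Lum (-1.76), Dcn (-1.57) and Pdgfra (-1.48) remained past the threshold in limma, as did that of Bgn (0.80), while those of Nid1 and Hgf did not. Beyond this removal, the part of GC content in these results was not tested.

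**Figure D3:**
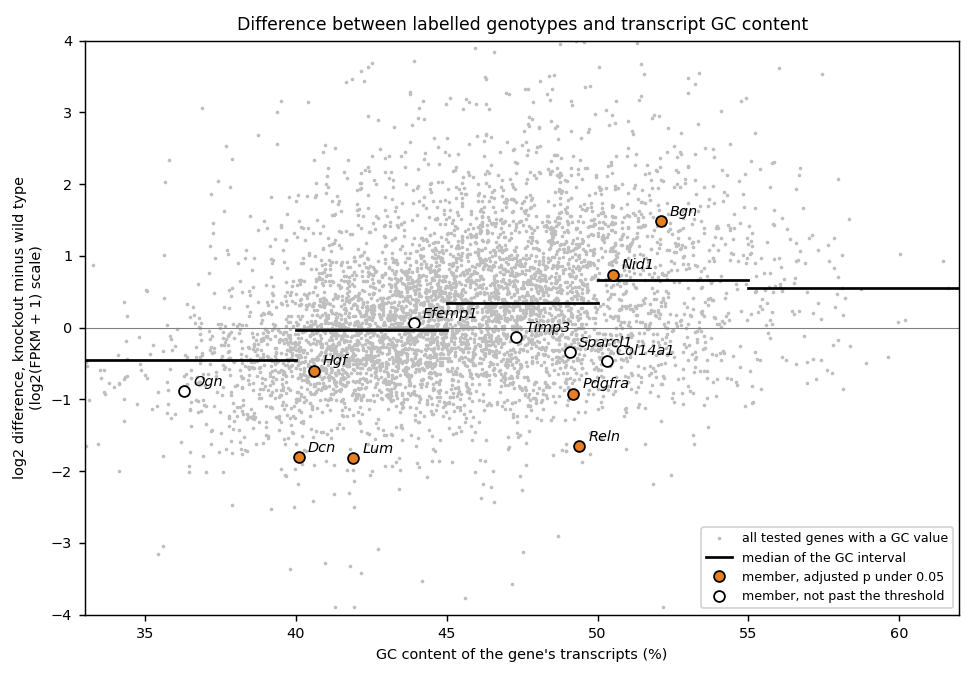
Log2 difference (knockout minus wild type, log2(FPKM + 1) scale, vertical axis) against transcript GC content in percent (horizontal axis) for all tested genes (grey) and the 12 tested members (orange where the adjusted p is under 0.05, open otherwise); genes beyond the axes are not drawn, and black bars are medians of GC intervals. Interval medians run from -0.45 under 40% GC to 0.66 between 50% and 55% GC, Nid1 lies near its interval's median, and Reln, Pdgfra, Dcn and Lum lie well under theirs.

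Summed over the 31 members, the libraries labelled knockout held 46.9, 53.3 and 67.0 FPKM (replicates 1 to 3) and those labelled wild type 100.4, 196.4 and 129.8 FPKM. The sums did not overlap. Dcn made up 39.1% ± 5.38 of the sum in the libraries labelled knockout and 56.8% ± 6.01 in those labelled wild type (SD, n = 3 each). Without Dcn, the sums were 30.8 to 38.8 FPKM in the libraries labelled knockout and 38.9 to 80.4 FPKM in those labelled wild type, and the nearest libraries were then about level. As a share of all FPKM outside mitochondrial transcripts, the members made up 0.0312% ± 0.00257 in the libraries labelled knockout and 0.0969% ± 0.0336 in those labelled wild type (SD, n = 3 each). Mitochondrial transcripts took 63.2% to 70.1% of all FPKM in the libraries labelled knockout and 70.5% to 73.9% in those labelled wild type. In whole liver, fewer cells of a type and less RNA per cell cannot be told apart.

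Some of the defining genes of stellate cells were read and others were not. Present in both groups were Reln, Dcn, Lum, Pdgfra, Hgf, Col14a1, Lrat, Ednrb and Abcc9. At or near 0 in both were Pdgfrb, Ecm1, Hand2, Cygb, Colec11 and Gfap, each under 0.2 FPKM on average. The transcripts of these 6 have 53.6% to 59.3% GC, and some abundant liver genes of such GC content were almost unread as well. Ass1, a urea cycle enzyme of hepatocytes with 54.6% GC, ranged from 0.0628 to 0.152 FPKM in the libraries labelled knockout and from 0 to 0.0852 FPKM in those labelled wild type. Pck1, another hepatocyte gene, with 53.6% GC, was well read. It averaged 117 ± 56.5 FPKM in the libraries labelled knockout and 84.4 ± 19.9 FPKM in those labelled wild type (SD, n = 3 each). Ass1 and Pck1 were chosen after their values were seen. Whether GC content or a lack of RNA in the cells set the low values of these markers was not tested. Of 25 other stellate cell genes outside the members, 22 could be used and 10 were tested, of which 6 fell and 1 rose, with a median log2 difference of -0.79. Ednrb, an endothelin receptor of stellate cells, averaged 3.83 ± 0.758 FPKM in the libraries labelled knockout and 10.9 ± 0.431 FPKM in those labelled wild type (SD, n = 3 each; log2 difference -1.32, limma adjusted p = 0.00061). Gucy1a1 and Gucy1b1, the subunits of the nitric oxide receptor, had log2 differences of -0.90 (limma adjusted p = 0.0018) and -0.91 (limma adjusted p = 0.0014), and Hhip, an inhibitor of hedgehog ligands, of -1.02 (limma adjusted p = 0.004). The following 3 were chosen after their values were seen: Lrat, the enzyme that makes retinyl esters, at -0.86 (limma adjusted p = 0.021), Colec10, a collectin, at -0.71 (limma adjusted p = 0.045), and Cxcl12, a chemokine of stromal cells and the gene that rose, at 0.71 (limma adjusted p = 0.034). Of the alternatives tried, 11 of 20 ended the call of Colec10 (limma adjusted p up to 0.14) and 6 of 19 that of Lrat (limma adjusted p up to 0.071). That of Cxcl12 was lost under 12 of 20, among them without knockout replicate 2, knockout replicate 3, wild type replicate 2 or wild type replicate 3.

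Genes of activated stellate cells were mostly under the filter. Of 20 contractile and myofibroblast genes, 5 were tested and 1 rose, Tpm1, which encodes a tropomyosin, at 2.26 ± 1.01 FPKM in the libraries labelled knockout and 0.512 ± 0.164 FPKM in those labelled wild type (SD, n = 3 each; log2 difference 1.07, limma adjusted p = 0.0049). Tpm1 reached 1 FPKM only in the libraries labelled knockout and so had to differ to be tested, and its call was lost with the GC trend removed (0.44, limma adjusted p = 0.11). The other 4 did not pass, although 1 of them was called lower without knockout replicate 2, and the median over the 5 was -0.37. Of 17 portal fibroblast and mesothelial genes, 1 was tested, the mesothelial Gpm6a, which did not pass (log2 difference -0.81, limma adjusted p = 0.16). Their summed level was 1.12 to 5.10 FPKM in the libraries labelled knockout and 3.20 to 8.52 FPKM in those labelled wild type, and Fbln2 was at 0 in all libraries. The part of such cells in the results was not tested.

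The signals that act on these cells were mixed. Of 25 TGF-beta and PDGF genes, 10 were tested, 4 fell and 2 rose. Tgfbr1, the signalling receptor of TGF-beta, averaged 14.0 ± 1.64 FPKM in the libraries labelled knockout and 27.0 ± 2.14 FPKM in those labelled wild type (SD, n = 3 each; log2 difference -0.91, limma adjusted p = 0.0024). Tgfbr3, the co-receptor betaglycan, had a log2 difference of -0.95 (limma adjusted p = 0.0044). Ccn1, a matricellular target of the Hippo pathway, averaged 3.96 ± 2.36 FPKM in the libraries labelled knockout and 0.171 ± 0.0511 FPKM in those labelled wild type (SD, n = 3 each; log2 difference 1.96, limma adjusted p = 0.0025), and Pdgfc, a ligand of the alpha receptor, rose by 0.57 (limma adjusted p = 0.022). Ccn1 reached 1 FPKM only in the libraries labelled knockout and so had to differ to be tested, and the call of Pdgfc was lost under 13 of 19 alternatives. Tgfb1 itself was listed at 0 in all 6 libraries. The count of 4 that fell was 2 without knockout replicate 2 or wild type replicate 3. The count of 2 that rose was 1 without knockout replicate 2, knockout replicate 3, wild type replicate 1 or wild type replicate 3.

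Of 22 matrix receptors, 8 were tested, and 2 fell. Cd44, the hyaluronan receptor, averaged 2.95 ± 0.848 FPKM in the libraries labelled knockout and 14.8 ± 3.74 FPKM in those labelled wild type (SD, n = 3 each; log2 difference -1.99, limma adjusted p = 0.00045), and Cd47, a thrombospondin receptor, had a log2 difference of -0.50 (limma adjusted p = 0.027). The count was 1 without knockout replicate 2 or wild type replicate 2, and the call of Cd47 was lost under 6 of 20 alternatives. Among 27 proteases and inhibitors outside the members, 6 were tested, 3 rose and 1 fell. The sheddase Adam17 rose by 1.10 (limma adjusted p = 0.0013), the aggrecan-cleaving Adamts1 by 0.78 (limma adjusted p = 0.002), and Plg, the plasminogen that hepatocytes make, by 1.89 (limma adjusted p = 0.0018). Adamts1 and Plg reached 1 FPKM only in the libraries labelled knockout and so had to differ to be tested. With the GC trend removed, Adamts1 differed by 0.16 and its call was lost (limma adjusted p = 0.29). Adam10, another sheddase, had a log2 difference of -0.79 (limma adjusted p = 0.0032). The count that fell was 2 without knockout replicate 1.

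Enzymes of collagen folding held the largest difference among the matrix and stellate lists. P4hb, the beta subunit of collagen prolyl 4-hydroxylase and also a protein disulphide isomerase, measured 38.3, 70.7 and 46.3 FPKM in knockout replicates 1 to 3, against 2.75, 1.06 and 1.21 FPKM in wild type replicates 1 to 3. The groups were far apart, with a log2 difference of 4.31 (SE 0.30, limma adjusted p = 7.2e-05). Ppib, the cyclophilin B that folds procollagen, rose by 2.31 (limma adjusted p = 0.0013), and Colgalt1, a collagen galactosyltransferase, had a log2 difference of -0.45 (limma adjusted p = 0.039), a call that held without wild type replicate 1 and was lost without any other library. These were the only 3 tested of 25 such genes. Of 15 elastic fibre genes outside the members, 0 were tested, and Fbln2, Fbn2, Ltbp2 and Ltbp4 were at 0 in all libraries. Over all 11 of these matrix and stellate lists, 229 genes outside the members, 51 were tested, 12 rose and 15 fell, with a median log2 difference of -0.33. Over all tested genes, 33.7% were higher, 20.4% lower and 54.1% called in either direction, so calls were about as common in these lists. After median centring, 10 genes of these lists were higher and 23 lower, and over all genes 1443 were higher and 1891 lower. Of the 12 list genes that rose as deposited, 5 (Sdc1, Tpm1, Ccn1, Adamts1 and Plg) reached 1 FPKM only in the libraries labelled knockout. Among the libraries labelled wild type, Adam17 reached it in replicate 1 alone and Pdgfc in replicate 2 alone. Both thus also passed the filter only with the libraries labelled knockout. Among the genes that fell, Hhip and Tgfbr3 passed it only with the libraries labelled wild type.

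**Figure D4:**
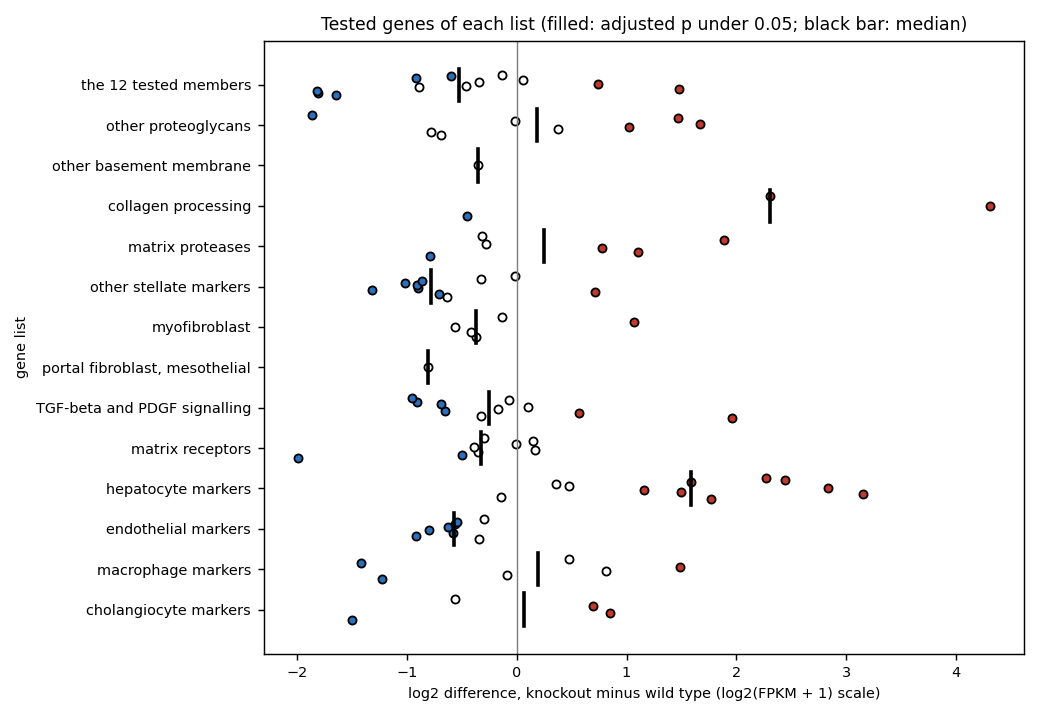
Log2 difference (knockout minus wild type, log2(FPKM + 1) scale, horizontal axis) of each tested gene in the members and in the other lists (rows; points shifted vertically to part them), filled red where called higher, blue where called lower, open otherwise, with the list's median as a black bar. Other stellate cell markers and endothelial markers lie mostly under 0, hepatocyte markers mostly above it, and the members on both sides.

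Markers of other liver cells were among the called genes too, where 54.1% of all tested genes were called, 33.7% higher and 20.4% lower. The calls of macrophage markers below were near that share. Of 17 hepatocyte markers, 11 were tested, 8 rose and the other 3 did not pass, with a median of 1.59 and a summed level of 5974 to 7633 FPKM in the libraries labelled knockout and 2630 to 3341 FPKM in those labelled wild type. Of 20 endothelial markers, 8 were tested and 6 fell, with a median of -0.57 and a summed level of 22.3 to 31.5 FPKM in the libraries labelled knockout and 40.3 to 45.9 FPKM in those labelled wild type. Among them, Cdh5 reached 1 FPKM only in the libraries labelled wild type. The count of 6 was 3 without knockout replicate 2 and 2 without knockout replicate 3, wild type replicate 2 or wild type replicate 3. Of 14 macrophage markers, 6 were tested, 1 rose and 2 fell, with sums of 15.9 to 62.7 FPKM in the libraries labelled knockout and 22.8 to 43.0 FPKM in those labelled wild type and C1qb at 0 in all. The gene that rose, Lyz2, reached 1 FPKM only in libraries labelled knockout and was not called without wild type replicate 3. Of 10 cholangiocyte markers, 4 were tested, 2 rose and 1 fell, with sums of 41.8 to 67.1 FPKM in the libraries labelled knockout and 84.8 to 113 FPKM in those labelled wild type. The count of 2 that rose was 1 without knockout replicate 3 or wild type replicate 3. The kidney markers, of which 2 were tested and did not pass, summed to 5327, 5.05 and 6.88 FPKM in knockout replicates 1 to 3 and to 1.98 to 2.80 FPKM in the libraries labelled wild type. The part of these other cells in the members' values was not tested. Without knockout replicate 1, the library with the most kidney transcript, 5 members were lower and 2 higher, as with it. The remaining libraries labelled knockout still held more Kap than any labelled wild type, so leaving out this library does not remove all of it.

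**Figure D5:**
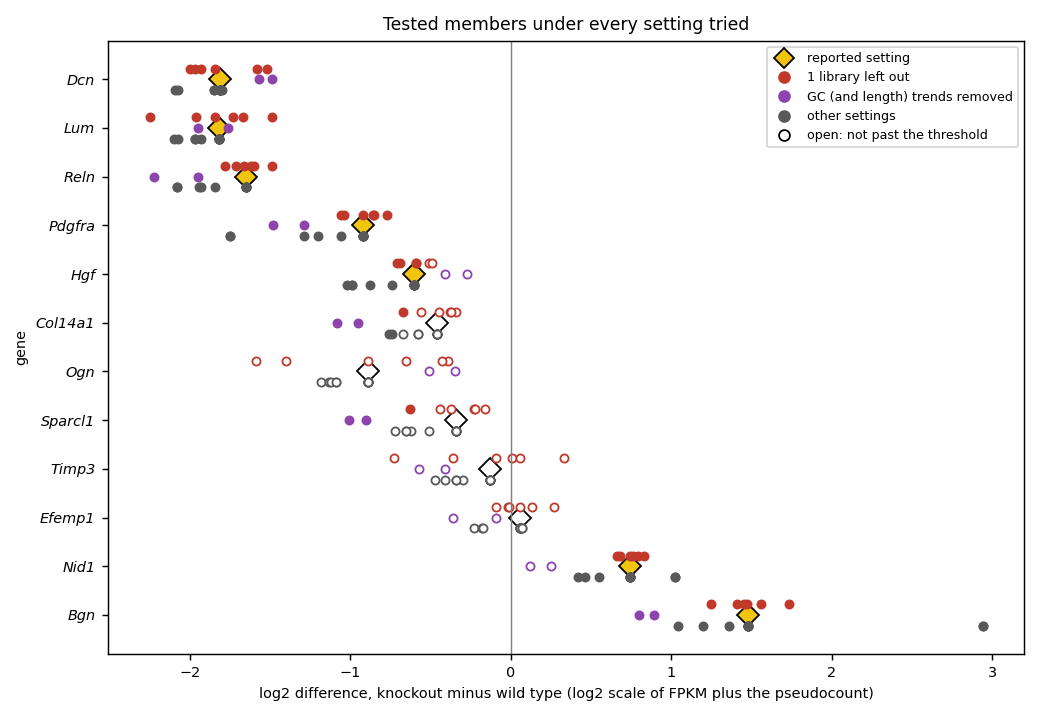
Log2 difference of each tested member (knockout minus wild type, horizontal axis, on the log2 scale of FPKM plus the pseudocount) as reported (diamond), with 1 library left out (red), with GC or GC and length trends removed (purple) and under the other settings (grey); filled symbols are past the threshold. Dcn, Lum, Reln, Pdgfra and Bgn stay on 1 side of 0 and filled under every setting drawn, whereas Hgf and Nid1 lose some of their calls.

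Exons of 11 of the 31 members overlap another annotated gene, and it is not stated whether reads were counted by strand. Among the called members this holds for Reln, Nid1 and Pdgfra, which overlap predicted genes on the opposite strand, Pdgfra with a microRNA on its own strand too, and for Hgf, which overlaps a predicted gene on its own strand. Timp3 overlaps Syn3 on the opposite strand. Reads of such pairs could not be told apart.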

How the data were processed

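The data are 6 RNA-seq libraries of whole liver. Per the submitters' processing notes, HISAT2 and GRCm39 were used. No source used here gives the counting tool, the annotation or the strand handling. Each deposited table gives 1 FPKM value per gene, per the file headers. In the table of knockout replicate 3 the header carries another sample code than the title, and the label was followed.

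Identifiers and symbols of a row name different genes. With exon lengths by symbol (GENCODE M21, GRCm38), 98.94% of 43170 low FPKM values outside the chromosome 1 block, up to 40 reads, were whole reads to within 0.15 read, against 36.03% of 3261 in the block. Symbols were used, and the 1787 rows of the block and 127 rows without a symbol were left out. The same steps gave the depth of 20460000 to 48610000 reads per library, at which 1 read on 1 kb is worth 0.0206 to 0.0489 FPKM. Read numbers cover counting error only.

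The test was limma 3.58.1 (R 4.3.3, robust moderation and a mean-variance trend) on log2(FPKM + 1), with labelled genotype alone in the model. It covered the 5673 genes that reached 1 FPKM in 3 or more libraries, and a call needed a Benjamini-Hochberg adjusted p under 0.05. Genes under the filter were taken from a fit of 20529 genes without it. On data simulated for this comparison over 5673 genes, 62% of 100 genes changed by 1 and 96% of 100 changed by 2 on the log2 scale were recovered, and 6 unchanged genes were called. The simulation changed a far smaller share of genes than the 54.1% called here. It held no trend with GC content, scaling or sex, so its rates need not hold in these libraries. The members, the 18 gene lists and the settings were chosen with earlier results of these data known. All members were described. Some genes of the other lists are not reported here. From each other list the rule named the called genes of smallest adjusted p, 4 at most, and where none was called at most 2 tested genes by mean FPKM. Alternatives were another pseudocount and other filters, thresholds and scalings, removal of loess trends (span 0.5) on GC content or GC content and exon length, a replicate block, adding the chromosome 1 rows and leaving out each library. The fit with no filter and a pseudocount of 0.1 together was chosen after seeing the data. Python 3.11.15 (matplotlib 3.10.9, scipy 1.17.1, pandas 2.3.3, numpy 2.4.6) served for the rest.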

Additional observations from a re-analysis of the deposited data

How the results depend on the processing

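Reln, Pdgfra and Bgn kept their direction and call under all 19 alternatives run for each, and Dcn and Lum under all 20. Over 14 members, 262 alternatives gave 225 values of the same direction and call, 18 that lost a call, 8 that gained one and 11 of reversed sign. The reversed values belonged to Efemp1 (-0.23 after median centring, -0.18 after quantile normalization, -0.17 scaled outside mitochondrial transcripts, -0.09 with the GC trend and -0.36 with GC and length trends removed, and -0.09 to 0.27 with 1 library left out) and to Timp3 (-0.73 to 0.33 with 1 library left out, with 0.01 and 0.06 between). Neither passed in any of these. Of 910 alternatives over 47 genes of the other lists, 807 had the same direction and call, 95 lost a call, 5 gained one and 3 reversed. Those 3 belonged to the kidney gene Cyp4b1, at -0.25 and -0.48 with the GC trend and with GC and length trends removed and -0.39 to 0.87 with 1 library left out.

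The members called higher numbered 4 without a filter, and also with a pseudocount of 0.1 in addition, 0 at a minimum of 10 FPKM, and 1 with the GC trend or GC and length trends removed. Those called lower numbered 2 at 10 FPKM. With 1 library left out, 2 were higher and 4 to 5 lower. In the 11 other matrix and stellate lists, 19 were higher without a filter (21 with the pseudocount of 0.1 in addition), 3 at 10 FPKM and 7 with GC and length trends removed. Lower were 8 at 10 FPKM, 9 at an adjusted p under 0.01, 23 after median centring, 24 after quantile normalization, 23 with the GC trend and 24 with GC and length trends removed. At 10 FPKM fewer genes were tested. The cause of the other changes was not tested.

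Over all genes, 3171 were higher and 1045 lower without a filter, 468 and 559 at 10 FPKM, 1395 and 656 at an adjusted p under 0.01, 1427 and 1761 after quantile normalization, 1437 and 1601 scaled outside mitochondrial transcripts, and 1396 and 1563 with the GC trend removed. With the replicate number as a block, 2 members were higher and 4 lower, against 2 and 5 without it, and Hgf was the call lost (limma adjusted p = 0.051). Residuals of libraries with the same number correlated at -0.049, -0.096 and 0.181. Libraries of unlike number were not compared in this way, so these values cannot tell whether the numbers pair the libraries. Several members under the filter rest on fewer than 10 reads per library, and a difference in them was not detectable from so few reads. Whether depth or GC content set these low numbers was not tested.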
